A study of Homo sapiens
Rattus norvegicus and Homo sapiens with 10 samples.

Results

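Metallothioneins are small cysteine-rich proteins that bind zinc and copper. The set described here holds 10 of the 62754 genes in the deposited table: MT1A, MT1E, MT1F, MT1G, MT1H, MT1M, MT1X, MT2A, MT3 and their transcription factor MTF1. They were found by gene name, and the set was chosen by a proposal that knew measured levels of these libraries, so their levels across the groups are a description, and their p-values, from fits over all genes, support nothing further. RNA was sequenced from U251N, an established human glioblastoma line, in 1 culture and in xenografts in the brains of adult female athymic RNU/RNU rats, which lack mature T cells. The xenograft groups were 3 primary tumours left without ablation and 3 tumours that had recurred following laser interstitial thermal therapy (LITT), heat ablation through a laser fibre guided by magnetic resonance imaging. The remaining group was 3 control brains free of tumour, of which 1 (control replicate 1) was a failed graft and 2 were procedural controls, whose procedure the labels do not detail. The labels do not give the rats' ages in figures or say that each library came from its own rat, so p-values may measure technical spread in part. The culture is 1 library that the labels place outside the experiment.

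The tumour libraries mixed human and rat RNA, with graft reads at 29.4% to 64.4%, against 0.33% to 4.9% in the controls. Total estimated counts were 65058642 in the culture, 20321590 to 39714714 in the tumours and 1358753 to 4158124 in the controls. Levels are given as CPM, counts of the gene per 1000000 counts of the library. No count of a gene is compatible with 3 counts, the limit used here, or 0.0461 CPM for the culture, between 0.0755 and 0.148 CPM for tumours and between 0.721 and 2.21 CPM for controls. Structural small RNAs, such as spliceosomal and 7SK RNA, took 6.02% to 14.1% of the counts in tumours but 31.3% to 92.6% in controls. The 10 glioblastoma line markers, among them CD44 and vimentin (VIM), were all present and summed to 14785 CPM in the culture, 9876 to 11192 CPM in the tumours and 144 to 8717 CPM in the controls. With structural small RNAs left out of the totals these were 15637, 11195 to 12346 and 1935 to 12685 CPM, so on that scale the highest control, labelled free of tumour, was above the tumours.

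Metallothioneins hold metal ions through cysteine thiols and so buffer free zinc and copper, bind cadmium and react with oxidants. MTF1 binds metal response elements in their promoters when zinc rises, and glucocorticoids also raise several of them. In brain, MT1 and MT2 proteins are known mainly from astrocytes, while MT3, also called growth inhibitory factor, is typical of neurons and astrocytes.

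The 8 MT1 and MT2A genes lie on chromosome 16 between 56608199 and 56684196 (GRCh38, GENCODE 29), a span of 76 kb, and MTF1 lies on chromosome 1, 37809567 to 37859620. The coding sequences of the 3 genes that carried most of the family's counts are shown because the reads can be told apart only where these sequences, or the untranslated parts beside them, differ. They run 5′ to 3′ from the start codon to the stop codon, spliced from the GENCODE 29 transcripts, all on the plus strand, with the cysteine codons in capitals.
MT2A: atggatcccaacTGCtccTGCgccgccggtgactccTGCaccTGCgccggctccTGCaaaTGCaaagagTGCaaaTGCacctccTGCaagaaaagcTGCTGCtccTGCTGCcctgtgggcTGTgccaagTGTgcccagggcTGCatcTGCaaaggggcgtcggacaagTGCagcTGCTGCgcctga
MT1E: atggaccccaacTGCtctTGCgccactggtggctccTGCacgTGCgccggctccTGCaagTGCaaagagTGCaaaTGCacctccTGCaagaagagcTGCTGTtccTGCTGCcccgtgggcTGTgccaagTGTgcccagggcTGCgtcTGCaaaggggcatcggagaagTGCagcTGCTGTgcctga
MT1X: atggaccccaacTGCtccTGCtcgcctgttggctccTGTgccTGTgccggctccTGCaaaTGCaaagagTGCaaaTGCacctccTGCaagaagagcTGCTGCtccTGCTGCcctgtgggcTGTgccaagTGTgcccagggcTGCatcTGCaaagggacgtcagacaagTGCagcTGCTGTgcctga

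The capitals fall in the same rhythm in all of them. Each of the 8 genes had 20 cysteine codons out of 61. Over the 28 pairs of these genes the coding sequences were 88.7% to 95.2% identical, and MT1E and MT1X were each 92.5% identical to MT2A. Of the runs of 31 bases in the principal transcript, 48.1% of those of MT1X, 15.3% of MT1E, 12.2% of MT2A and 8.33% of MT1F also occurred in a transcript of another gene. Salmon divides such shared reads by a model, so the split between MT1 genes, MT1X above all, is less certain than their sum.

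The family's RNA in these libraries came from 4 genes, MT2A, MT1E, MT1X and MT1F. MT2A, the most widely expressed human metallothionein, lies at 56608199 to 56609497 and stood at 40 CPM in the culture. It stood at 119, 117 and 101 CPM in the primary tumours and at 81.4, 121 and 98.2 CPM in the recurrent tumours. All 6 tumours were above the culture, and the primary and recurrent ranges overlapped. MT1E (56625475 to 56627112), an MT1 isoform, stood at 1.84 CPM in the culture, where it had 120 counts (exact Poisson 95% interval 1.53 to 2.21 CPM, for counting error only). Its level was 44.7, 42.6 and 31.1 CPM in the primary and 29.1, 29.7 and 27.1 CPM in the recurrent tumours. Every tumour was far above the culture, and each recurrent tumour was below each primary tumour on library totals. With structural small RNAs left out the tumour groups overlapped, with recurrent replicate 1 at 33.4 CPM and primary replicate 3 at 33.1 CPM.

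MT1X (56682424 to 56684196), an isoform at the far end of the cluster, stood at 6.21 CPM in the culture, at 31.8, 42.5 and 27.4 CPM in the primary and at 19.3, 35 and 24.9 CPM in the recurrent tumours. MT1F (56657694 to 56660698), the lowest of the 4, stood at 0.999 CPM in the culture, at 6.7, 8.06 and 3.75 CPM in the primary and at 5.46, 4.55 and 3.57 CPM in the recurrent tumours. For both genes all tumours exceeded the culture and the 2 tumour groups overlapped. Primary replicate 2, whose RNA integrity number of 7.8 was below that of the other tumours, was the highest library for both.

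MTF1 itself, the zinc-sensing factor, went another way. It stood at 36.2 CPM in the culture, at 39.1, 19.7 and 37.2 CPM in the primary and at 40.6, 35.9 and 38 CPM in the recurrent tumours. The culture lay inside the tumour range, and primary replicate 2 was low apart from the other 5 tumours.

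**Figure D1:**
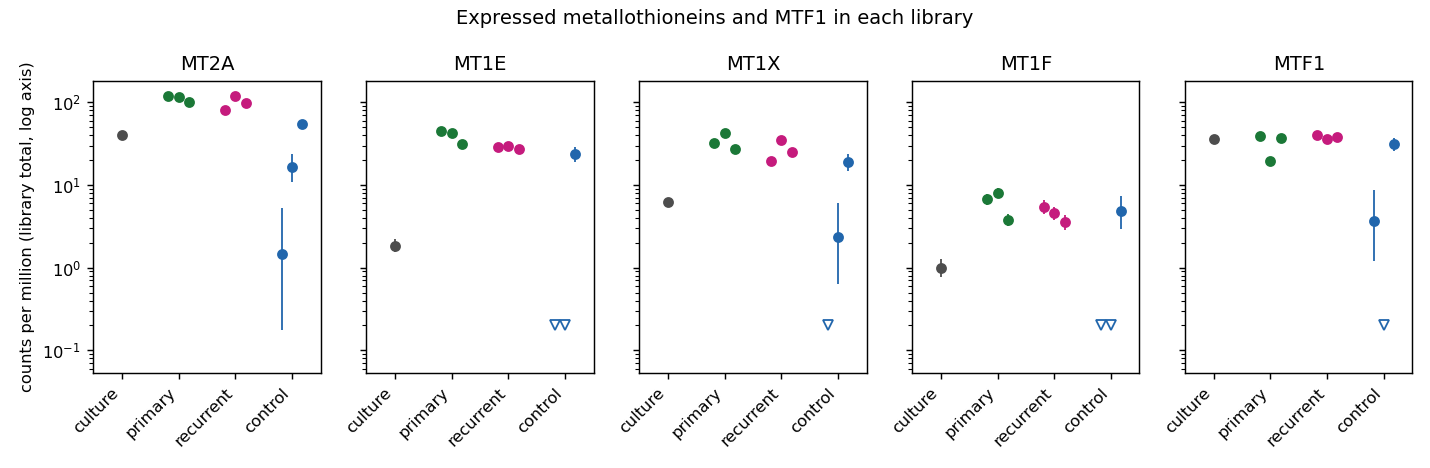
Each panel plots 1 gene, with the level of every library on the y axis in CPM of the library total (log axis) and the 4 groups on the x axis. Bars are exact Poisson 95% intervals, and open triangles at the foot mark libraries with no count, drawn at an arbitrary height. The culture sits below all 6 tumours for MT2A, MT1E, MT1X and MT1F, and within them for MTF1.

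The other 5 members were at or near 0. MT1G, an isoform often studied in thyroid and liver cancers, and MT1H had no count in any of the 10 libraries. MT1A had 3 counts, all in control replicate 2. MT1M had 7 counts in primary replicate 1 and 3 in primary replicate 3 and none elsewhere, so no difference was detectable at this depth. MT3 had 29 counts in the culture, 0.446 CPM (exact Poisson 95% interval 0.299 to 0.64), and 1 to 12 counts in a tumour, 0.0395 to 0.474 CPM. The highest tumour for MT3 was primary replicate 2 with 12 counts, the only tumour above the culture. The other tumours were at 0.158 CPM or less, and the tumour mean was 0.169 CPM. Of the 13 rows for 12 further metallothionein genes and pseudogenes, among them MT1B and MT4, 11 had no count anywhere, and MT1XP1 and MT1HL1 had 1 or 2 in all. The genes with most counts and those with few or none alternate along the cluster: MT1M (10 counts in all) and MT1A (3) lie between MT1E and MT1F, and MT1G and MT1H (0 each) between MT1F and MT1X.

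Per kilobase of the principal transcript, the mean level over the 6 tumours was 135 CPM per kb for MT2A, 67 for MT1X, 48.4 for MT1E, 7.75 for MT1F and 4.4 for MTF1. In this order the ranges of MT1X (43 to 94.4 CPM per kb) and MT1E (38.4 to 63.6) overlapped, while the other neighbours were apart, with MT2A at 104 to 154, MT1F at 5.17 to 11.7 and MTF1 at 2.48 to 5.1. On this scale MT2A ranked 390 of 19579 protein-coding genes in the tumours and 1132 in the culture. MT1E ranked 1209 in the tumours and 9928 in the culture. The transcripts are short (450 bases for MT1X, 786 for MT2A), so these values depend on the annotated length.

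Set against the culture, the tumours held more RNA of the 4 expressed metallothioneins, by factors that differed between the genes. The mean of the 6 tumours was 18.5-fold above the culture for MT1E, 5.35-fold for MT1F, 4.85-fold for MT1X and 2.65-fold for MT2A, while MTF1 was at 0.97 of it. On the log2 scale of culture over tumours these are -4.21, -2.42, -2.28, -1.41 and 0.04. With 1 culture library there is no test. Instead a gene was counted where the culture differed from the tumour mean by 2-fold or more and lay outside the range of all 6 tumours. Of the 5 members with a mean of at least 1 CPM, 4 were counted as lower in the culture and 0 as higher, where 5.28% of all 14110 genes were lower and 8.69% higher. The other 5 members had too few counts. With TMM scaling, which centres most genes, the log2 ratios of MT1E, MT1F, MT1X and MT2A were -4.28, -2.50, -2.36 and -1.48 (6% of all genes lower, 7.62% higher), and without structural small RNAs -4.28, -2.50, -2.35 and -1.47 (6.05% lower, 7.8% higher). Since the set was proposed with this pattern known, the comparison describes the members and is no evidence about the family.

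A total of 75 genes, 0.532% of the 14110, had a lower ratio of culture to tumours than MT1E. For MT1F, MT1X and MT2A the share of genes with a lower ratio was 1.5%, 1.63% and 3.47%. Short transcripts as a class were slightly lower in the culture: of 571 protein-coding genes with principal transcripts up to 1000 bases, the median log2 ratio was -0.22 and 7.18% were counted as lower. The 4 metallothioneins, chosen with their ratios known, lay below that median by more than 1 log2 unit each. The part of transcript length in their ratios was not tested. In such bulk samples a larger share of cells of a type and more RNA per cell cannot be told apart.

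**Figure D2:**
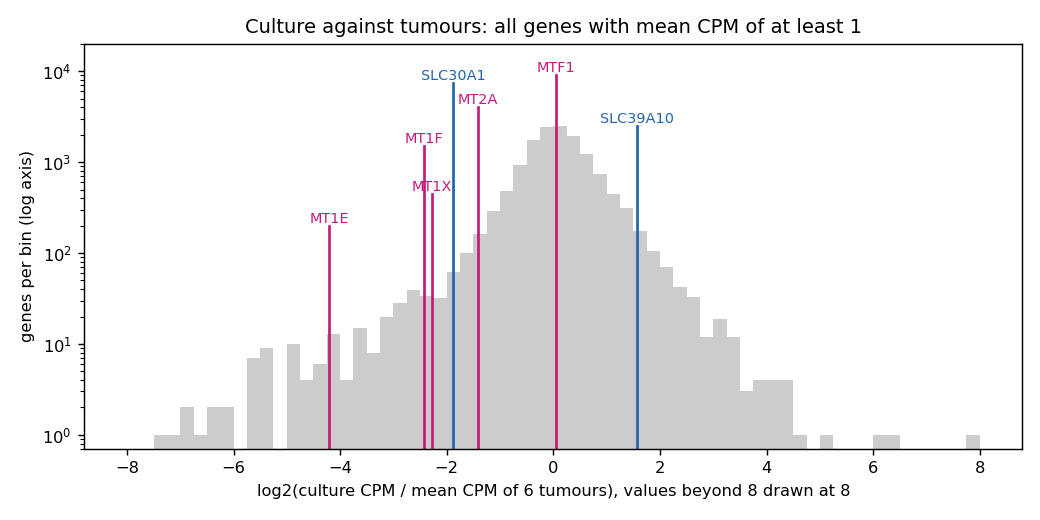
The histogram shows, for all genes with a mean of at least 1 CPM, the log2 ratio of the culture to the mean of the 6 tumours (x axis) and the number of genes per bin (y axis, log scale); 29 genes with no count in the culture are not drawn. Vertical lines, whose heights carry no value, mark the members (magenta) and a pair of zinc transporters (blue), with MT1E at -4.21, MTF1 at 0.04 and SLC39A10 at 1.56.

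The make-up of the family's RNA in the culture library lay outside the range of the tumours, a comparison within each library that no scaling between libraries can alter and that has no test, with 1 culture library. The intervals below cover counting error only. The summed level of the 8 MT1 and MT2A genes was 49 CPM in the culture, 163 to 210 CPM in the primary and 135 to 190 CPM in the recurrent tumours, so the tumour mean was 3.58-fold the culture. MT2A made up 81.5% of that sum in the culture (Wilson 95% interval 80.2 to 82.8) and 55.7% to 63.9% in the tumours. MT1E made up 3.76% in the culture (Wilson 95% interval 3.16 to 4.48) and 15.6% to 22.1% in the tumours. MT1X took 12.7% in the culture (11.6 to 13.9) and 14.3% to 20.2% in the tumours. There were 21.7 MT2A counts for each MT1E count in the culture and 2.65 to 4.06 in a tumour.

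Between the tumour groups the make-up overlapped. The share of MT1E was 20.5% ± 1.54 (primary, SD, n = 3) and 18.3% ± 2.99 (recurrent, SD, n = 3), and that of MT2A was 58.7% ± 3.02 and 62.5% ± 2.06. For each of the 2 genes the ranges of the groups overlapped.

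**Figure D3:**
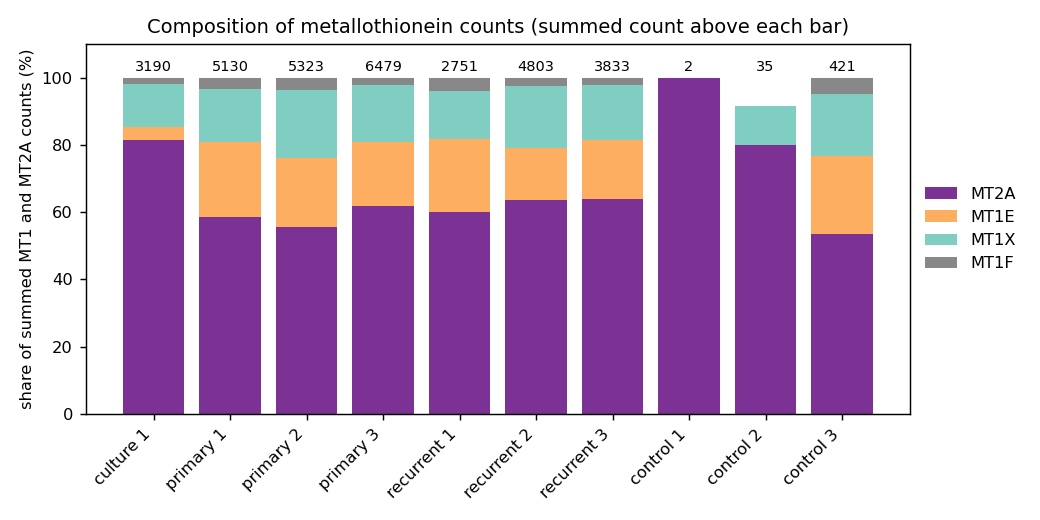
Each bar is 1 library and shows the percentage of its summed MT1 and MT2A counts that came from MT2A, MT1E, MT1X and MT1F (y axis), with the summed count above the bar. MT1E takes 3.76% in the culture and 15.6% to 22.1% in the 6 tumours; control replicates 1 and 2 rest on 2 and 35 counts, and the gap at the top of the second is the 3 counts of MT1A.

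After LITT the recurrent tumours held somewhat lower mean levels of the 4 expressed metallothioneins, and none of these differences passed the test. The mean of MT1E was 39.5 ± 7.32 CPM (primary, SD, n = 3) and 28.6 ± 1.38 CPM (recurrent, SD, n = 3), with an edgeR quasi-likelihood log2 fold change of -0.48 (SE 0.17, Benjamini-Hochberg adjusted p = 0.551). It was lower in 3 of 3 recurrent tumours than in any primary tumour on library totals and with TMM scaling, but not on totals with structural small RNAs left out. MT1X stood at 33.9 ± 7.72 and 26.4 ± 7.92 CPM (log2 fold change -0.39, SE 0.24), MT1F at 6.17 ± 2.2 and 4.53 ± 0.947 CPM (-0.47, SE 0.35) and MT2A at 112 ± 9.9 and 100.1 ± 19.7 CPM (-0.19, SE 0.16). MTF1 stood at 32 ± 10.7 and 38.2 ± 2.37 CPM (0.26, SE 0.21). For these 4 genes the groups overlapped, with edgeR adjusted p from 0.659 to 0.741.

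Of the 10 members, 5 passed the filter on low counts. Over all 15928 genes tested, edgeR called 0% higher and 0.00628% lower in recurrent tumours, and 0 of the 5 members were called. By sign, 4 of the 5 were lower, as were 51% of all genes. At an unadjusted p under 0.05, where 3.79% of all genes were lower and 4.59% higher, 1 member (MT1E) was lower and 0 were higher; DESeq2 called 0 members. Groups that did not overlap, with recurrent lower, were seen in 7.76% of all genes and in 1 of the 5, MT1E; with recurrent higher, in 6.47% of all genes and 0 of the 5. The median log2 fold change of the 5 was -0.39, beside -0.01 over all genes.

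Transcript length moved in the same direction: the 625 tested protein-coding genes with principal transcripts up to 1000 bases, the class of all 4 metallothioneins, had a median log2 fold change of -0.25, and 80.2% of them were lower. Its part in the metallothionein values was not tested. Graft reads were also fewer in the recurrent (29.4% to 42.7%) than in most primary tumours (42.5% to 64.4%), and with that percentage as a covariate the log2 fold change of MT1E was -0.78 and that of MT1F -1.04. Without primary replicate 2 the log2 fold change was -0.38 for MT1E, -0.15 for MT1X, -0.18 for MT1F, -0.11 for MT2A and 0.03 for MTF1, and without recurrent replicate 1 that of MT2A was -0.08 and that of MT1X -0.23. Without recurrent replicate 2 those of MT2A and MT1X were -0.33 and -0.63, without primary replicate 3 that of MT1F was -0.75, and without primary replicate 1 that of MTF1 was 0.40.

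**Figure D4:**
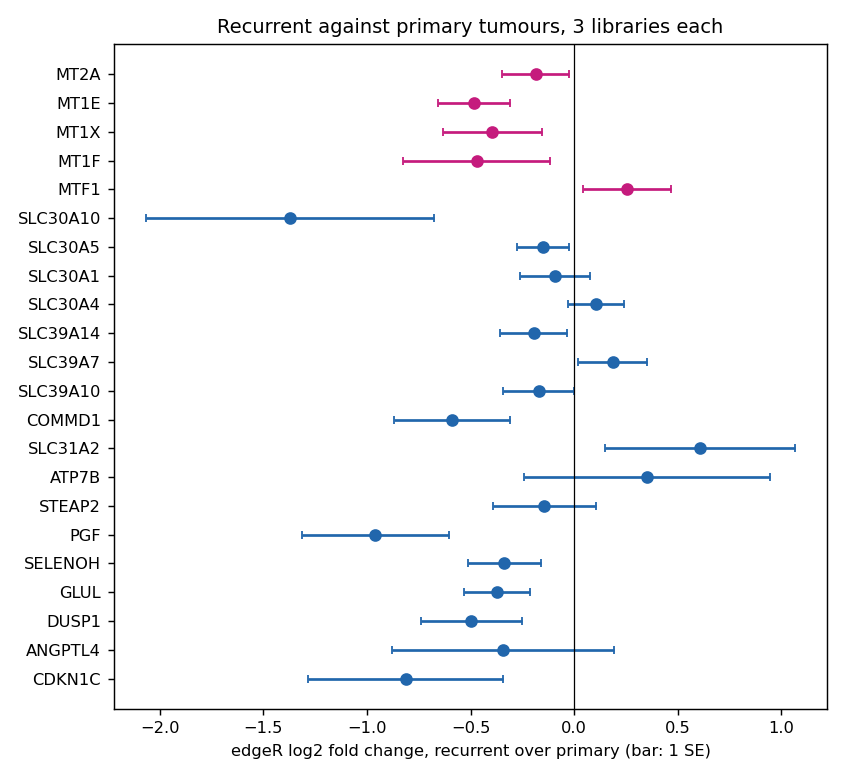
Points are edgeR log2 fold changes of recurrent over primary tumours (x axis) for the expressed members (magenta) and the named genes of zinc, copper and glucocorticoid pathways (blue), with bars of 1 SE. The 4 metallothioneins lie between -0.48 and -0.19 and MTF1 at 0.26, and no gene shown passed the adjusted threshold.

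Markers of astrocytes, which make metallothioneins in brain, were followed as a list of 9 genes. Their summed level was 324 CPM in the culture, 999 to 1150 CPM in the primary and 693 to 819 CPM in the recurrent tumours. The metallothionein sum had this order only in its group means, as its primary (163 to 210 CPM) and recurrent (135 to 190 CPM) ranges overlapped. The marker sum came mostly from GFAP and GJA1, and not every marker shared that order. SLC1A2 stood at 2.61 CPM in the culture and at a mean of 1.55 CPM in the tumours, and ALDOC at 4.57 and 4.25 CPM. In the tumour-free controls the list summed to only 11.8 to 584 CPM, below every tumour. With structural small RNAs left out it summed to 159 to 850 CPM there and 741 to 1266 CPM in the tumours. GFAP, an intermediate filament that the line also expresses, stood at 138 CPM in the culture, 457 to 596 CPM in the primary and 285 to 336 CPM in the recurrent tumours. All 9 genes had counts in the culture, among them GJA1, SLC1A3 and S100B at 130, 42.1 and 6.55 CPM. In the controls GFAP stood at 4.42 to 135 CPM. AQP4, an astrocyte water channel, had no count in the recurrent tumours or in the controls. Of 8 microglial markers, 5 had no count in any tumour and the list summed to 1.62 to 3.99 CPM, and all 5 blood markers were at 0. The 8 neuronal markers summed to 535 CPM in the culture and 769 to 1433 CPM in the tumours, with GAD2 at 0 in all 7 libraries. Most of that sum was NEFL, at 477 CPM in the culture and 747 to 1417 CPM in the tumours. RBFOX3 had no count in the culture and stood at 0.126 to 5.36 CPM in the tumours and 51 to 226 CPM in the controls. SYT1 and GAD1 were higher in the culture (32.5 and 22.2 CPM) than in any tumour. The 7 oligodendrocyte markers summed to 135 CPM in the culture and 124 to 201 CPM in the tumours, and the 7 endothelial markers to 9.08 and 8.72 to 19 CPM, with CLDN5 at 0. The part of host RNA in the metallothionein values was not tested.

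In the tumour-free brains, human metallothionein counts were highest in the library with most graft reads, and so was their summed level on library totals. Without structural small RNAs the order changed: 199 CPM in control replicate 2 (0.55% graft reads, 35 counts) and 147 CPM in replicate 3. Control replicate 3, with 4.9% graft reads, had 225 counts of MT2A, 98 of MT1E, 78 of MT1X and 20 of MT1F, with MT1E at 23.3% of the summed counts (Wilson 95% interval 19.5 to 27.5). Control replicate 2 had 28 counts of MT2A and 4 of MT1X, and control replicate 1 had 2 of MT2A; neither had any of MT1E or MT1F. In control replicate 2, 0 of 35 summed counts allows a share of MT1E of up to 8.57%, below its share in every tumour. MT1E in the lowest tumour was at least 12.3-fold higher than the limit of 3 counts in control replicate 1 per library total. With structural small RNAs left out of the totals that bound was 1.01, so a lower level of MT1E was not detectable there on that scale.

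MT2A in control replicate 2 was 16.4 CPM of the library total but 159 CPM with structural small RNAs left out, against 93.3 to 136 CPM in the tumours on the second scale. Which of the 2 orders holds therefore depends on the total used. In edgeR's TMM-scaled test of the tumours against the controls, none of the 5 tested members was called, with log2 fold changes from -0.04 (MTF1, SE 0.43) to 0.51 (MT1E, SE 0.42) and adjusted p from 0.53 to 0.983. The background was 0.927% of 16389 genes called higher and 4.5% called lower in tumours. MT2A, MT1E and MT1X were higher in every tumour than in every control on library totals, as were 51.2% of all genes. The median over all genes was a log2 fold change of 0.21 with TMM scaling and 1.74 with library totals, where 177 genes were called higher and 248 lower in place of 152 and 737, so directions here are relative to that shift. With library totals the log2 fold changes were 2.13 for MT2A, 2.04 for MT1E, 2.03 for MT1X, 1.39 for MT1F and 1.56 for MTF1 (edgeR adjusted p from 0.211 to 0.254), and DESeq2 gave 0.98 for MT1E (adjusted p = 0.571). Without control replicate 3, MT1E rested on controls with no count and passed (edgeR adjusted p = 0.0159), and its fitted fold is then no bound.

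Of the zinc transporters with a mean of at least 1 CPM, 1 exporter was counted as lower and 1 importer as higher in the culture. SLC30A1, which exports zinc at the plasma membrane and is a known MTF1 target, stood at 7.18 CPM in the culture, at 32.2, 25.1 and 23.6 CPM in the primary and at 21.8, 29.5 and 25.6 CPM in the recurrent tumours, a mean 3.66-fold above the culture. All 6 tumours were above the culture. SLC39A10, a zinc importer that MTF1 is known to repress, stood at 74.5 CPM in the culture, at 23.7, 24.3 and 31.9 CPM in the primary and at 19.6, 25.5 and 26.6 CPM in the recurrent tumours. The culture was above every tumour and 2.95-fold above their mean.

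Over all genes, 8.69% were counted as higher and 5.28% as lower in the culture, against which the small lists here are to be read. Of the 6 exporters of the SLC30 family with at least 1 CPM, 1 (SLC30A1) was counted as lower in the culture and 0 as higher, and SLC30A4, a vesicular transporter, was 1.29-fold higher there without being counted. Of 11 importers of the SLC39 family, 1 (SLC39A10) was higher and 0 lower, and SLC39A14, which also carries iron and manganese, stood at 94.5 CPM in the culture and 137 to 216 CPM in the tumours. The medians were 0.17 and 0.28 on the log2 scale of culture over tumours, beside 0.06 over all genes. Of 5 known or proposed MTF1 targets outside the family, 1 was higher and 1 lower in the culture, the same SLC39A10 and SLC30A1. Their median of 0.38 takes no account of which targets MTF1 raises or represses. GCLC stood at 21.6 CPM in the culture and 12.1 to 18.7 CPM in the tumours, without being counted. PGF, at 9.31 and 2.61 to 11.5 CPM, and SELENOH, at 25.6 and 33.3 to 54.9 CPM, were not counted either.

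Of 15 genes of copper handling, 1 was higher and 2 lower in the culture (median -0.24). ATP7B, a copper-exporting ATPase, stood at 4.38 CPM there and 0.434 to 1.81 CPM in the tumours, and STEAP2, a metalloreductase, at 3.49 and 6.05 to 9.68 CPM. Of 14 genes of the glucocorticoid response, 3 were higher and 2 lower (median 0.06), beside the same 8.69% and 5.28% over all genes. CDKN1C, a cell-cycle inhibitor, stood at 0.599 CPM in the culture and 0.83 to 3.45 CPM in the tumours, and ANGPTL4, a lipase inhibitor that hypoxia also raises, at 0.0615 and 1.82 to 10.1 CPM. The 3 counted as higher were KLF9, ERRFI1 and GLUL, glutamine synthetase. KLF9 stood at 53.9 CPM in the culture and 10.7 to 19.9 CPM in the tumours, ERRFI1 at 708 and 180 to 396 CPM, and GLUL at 405 and 117 to 194 CPM. PER1, at 26 and 8.46 to 19.2 CPM, was 1.8-fold higher in the culture without being counted. FKBP5 and TSC22D3, classical glucocorticoid targets named here after their values were seen, stood at 11.9 and 31 CPM in the culture, and at 10.1 to 26.8 and 20.3 to 28.1 CPM in the tumours, and neither was counted.

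Between recurrent and primary tumours no gene of these lists was called by edgeR: 0 of 7 exporters, 11 importers, 15 copper genes, 5 MTF1 targets and 14 glucocorticoid response genes. The medians of the log2 fold changes were -0.08, -0.09, -0.13, -0.17 and -0.03 in that order. SLC30A1 differed by -0.09 (SE 0.17) and SLC39A10 by -0.17 (SE 0.17). The genes with the smallest unadjusted p of each list were SLC30A10, a manganese exporter (-1.37, SE 0.69), SLC30A5, a zinc transporter of the secretory pathway (-0.15, SE 0.12), SLC39A14 (-0.20, SE 0.16), SLC39A7, a zinc channel of the secretory pathway (0.19, SE 0.17), COMMD1, a copper-handling scaffold (-0.59, SE 0.28), and SLC31A2, a copper transporter of endosomes and lysosomes (0.61, SE 0.46). In the last 2 lists they were PGF, placental growth factor (-0.96, SE 0.36), SELENOH, a selenoprotein (-0.34, SE 0.18), GLUL (-0.37, SE 0.16), and DUSP1, a phosphatase of MAP kinases (-0.50, SE 0.24). Their edgeR adjusted p ran from 0.572 to 0.753.

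Over the 6 tumours, the genes whose levels lay closest to the summed MT1 and MT2A level by Pearson's r, of 11185 genes with at least 5 CPM, were GET4 (0.989), VEGFB (0.984), HDAC10 (0.98), TRMT10C (0.976) and RGS2 (0.972). With 6 points 97 genes had an r above 0.9, so these values describe the libraries only. For MT3, which had 1 to 12 counts a tumour, they were TCN2, ENOPH1, NARF, SCARNA12 and SNRPD2 (0.991 to 0.999), and 500 genes were above 0.9.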

How the data were processed

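Tumour was cut from frozen brain slices without DNase treatment of the RNA, and libraries were stranded, depleted of ribosomal RNA and read in pairs, per the labels' protocols. GRCh38, STAR, Salmon 1.10.3 and DESeq2 are named per the submitters' processing notes. The tools' roles, the annotation release and the graft and host read classes counted were not given in the sources used here. The authors deposited Salmon estimated counts per gene, unscaled. Counts were rounded before tests.

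Groups came from the treatment labels. Recurrent against primary tumours (3 each), and tumours against controls, were tested on the whole table by the two-sided quasi-likelihood F test of edgeR 4.0.16 under R 4.3.3, after TMM scaling and the default filter; p was adjusted by Benjamini-Hochberg, and calls had an adjusted p under 0.05. The SE is the log2 fold change divided by the root of F. DESeq2 1.42.0 and limma 3.58.1 were alternatives. The culture was compared by fold only. The script was tested on simulated counts. Members, lists and the rule for named genes (every member; per list the 2 smallest p and the 2 largest culture folds; the 5 most similar genes) were chosen with earlier results of these data known. Lengths, coordinates and coding sequences came from GENCODE 29, whose release may differ from the authors'; the 10 members matched by symbol and ID. Coding sequences are shown for 3 members, and those of the others are not reported here.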

Additional observations from a re-analysis of the deposited data

Results flagged for a closer look

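Among the 6 tumours, the level of MTF1 in primary replicate 2 (19.7 CPM) lay apart from the other 5 (35.9 to 40.6 CPM): its gap to the nearest tumour was 0.774 of the whole range, above Dixon's 95% critical value for 6 samples. Chance alone marks about 1 in 20 such groups, and 6 measures were examined. Its RNA integrity number, 7.8, was below those of the other tumours and its structural small RNAs, 14.1%, above them, and their part in the value was not tested.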

How the results depend on the processing

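The summed MT1 and MT2A level kept its direction under every alternative run: the log2 ratio of recurrent over primary was -0.27 (-0.41 to -0.16 with 1 tumour left out) and that of culture over tumours -1.84 (-1.91 to -1.78). All 4 metallothioneins stayed lower in recurrent tumours and in the culture under every alternative run, and no member passed a threshold between recurrent and primary tumours. With the library name prefix as a covariate, which leaves recurrent replicate 1 alone against the primary tumours, MT1X was at -0.79, MT2A at -0.44, MT1E at -0.42, MT1F at -0.16 and MTF1 at 0.38. No paired analysis was possible because the labels give no replicate numbers shared between groups.

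Counts of called genes moved more. For recurrent against primary tumours (0 higher, 1 lower; 1335 at an unadjusted p under 0.05) DESeq2 called 66 and 42, no filter 227 and 184, the prefix covariate 1 and 3, and limma-voom and the graft covariate 0 lower; leaving out 1 tumour gave 0 to 19 higher and 0 to 4 lower. For tumours against controls (152 and 737), DESeq2 called 1815 lower, library totals 248 lower, no filter 348 and 1777, and leaving out 1 library gave 53 to 1264 higher and 315 to 1380 lower, both extremes upward without control replicate 3. For the culture, no filter on low values gave 6345 higher in place of 1226.

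In tumours against controls, where no member was called, small differences changed sign. MTF1 (-0.04) was at 1.56 with library totals, 0.0246 with no filter, and from -0.32 to 0.79 with 1 library left out, with 0.10 without primary replicate 2, 0.04 and 0.01 without recurrent replicates 2 and 3, 0.10 without control replicate 1 and 0.79 without control replicate 3. MT1F (0.06; -0.12 to 9.75 with 1 library left out, the highest without control replicate 3) was at -0.05 without primary replicate 2, -0.01 without recurrent replicate 1, -0.01 without control replicate 1 and -0.12 without control replicate 2. MT2A (0.24; -0.0309 to 0.811 with 1 library left out) was at -0.0309 without control replicate 3. The cause of these shifts was not tested. The 2 shallow controls, with 2 and 35 metallothionein counts, limit every statement on tumour-free brain.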
